A study of Homo sapiens with 9 samples.

Results

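YAP1, TEAD4 and 8 genes known as targets of these factors (CTGF, CYR61, ANKRD1, AMOTL2, AJUBA, LATS2, AXL and F3) were followed in HCT116 cells that overexpress the long noncoding RNA CRLM1. The genes were chosen by symbol, CTGF and CYR61 being the older names of CCN2 and CCN1, and all 10 were found among the 31558 genes with counts. HCT116 is an epithelial cell line from a human colorectal carcinoma. RNA-seq was done on 3 groups with 3 biological replicates each. The CRLM1-OE cells carried the CRLM1 cDNA in a pTSB vector, the Anti cells carried its antisense form, and the Ctrl cells carried the free plasmid. All cells were the same line in McCoy's 5A medium. The paper calls the sequenced cells of all 3 groups transfected, and its methods also describe a lentiviral form of the CRLM1 vector with puromycin selection. Whether each replicate was a separate transfection is not given in the sources used here. If the replicates were repeat cultures of one cell population, the p-values below rest only on the spread between those cultures. In the main test that spread was pooled over genes of like count.

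YAP1 is a transcriptional co-activator that binds no DNA itself and works through the TEAD family of DNA-binding factors. The Hippo kinases MST (encoded by STK3 and STK4) activate the LATS kinases. LATS then phosphorylates YAP1 and its paralog TAZ (encoded by WWTR1), which keeps them out of the nucleus. When the kinases are off, YAP1 and TAZ enter the nucleus and switch on genes for growth, matrix and adhesion. Several of the targets, among them LATS2 and AMOTL2, feed back on YAP1. The pathway is known for its part in intestinal regeneration and in colorectal cancer. Because much of this control acts on the YAP1 protein, its mRNA level is no measure of its activity.

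The promoters are shown first, since TEAD factors act on these targets through DNA. Windows of 250 bases before to 50 bases after each start were taken from RefSeq (GRCh38.p14), and 8 of the 10 members matched, with 11 windows. TEAD4 and CYR61 did not match. The letters GGAATG, the core of the TEAD motif, or their reverse complement CATTCC were found in a window of 7 of the 8 members. They occur in 14.0% of all 35116 windows and in 16.7% of the 27305 genes with a window. CTGF, with 3 matches at 95, 104 and 169 bases before the start, belongs to 0.13% of windows with at least 3, and ANKRD1, with matches at 128 and 220 bases, to 1.37% with at least 2. YAP1 had 1 match at 162 bases before its start, the downstream starts of AMOTL2, AJUBA and AXL had 1 each at 69, 59 and 212 bases, and the upstream start of these 3 genes had none. The LATS2 match began at base 10 of the transcript. F3 was the member without a TEAD match, and its window held the AP-1 motif TGAGTCA (reverse complement TGACTCA) 210 bases before the start, letters found in 4.9% of windows and in no other member's. The 2 motifs share no position in these windows. The 250 bases before the start are printed for 2 targets with several TEAD matches (CTGF and ANKRD1) and for the 2 targets that were lower in CRLM1-OE cells (AXL, downstream start, and F3), with TEAD matches in capitals in the first 3 and the AP-1 match in capitals in F3. They lie at chr6:131951373-131951622 on the minus strand (CTGF), chr10:90921088-90921337 on the minus strand (ANKRD1), chr19:41226505-41226754 on the plus strand (AXL) and chr1:94541760-94542009 on the minus strand (F3). No annotated exon of GENCODE version 44 overlaps the first 3, and an exon of a noncoding gene (ENSG00000288736) covers 73 bases of the fourth.
CTGF: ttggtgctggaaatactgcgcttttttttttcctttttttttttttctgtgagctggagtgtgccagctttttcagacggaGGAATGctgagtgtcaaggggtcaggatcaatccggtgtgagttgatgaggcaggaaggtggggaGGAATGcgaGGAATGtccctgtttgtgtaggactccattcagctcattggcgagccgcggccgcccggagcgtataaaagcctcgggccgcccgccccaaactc
ANKRD1: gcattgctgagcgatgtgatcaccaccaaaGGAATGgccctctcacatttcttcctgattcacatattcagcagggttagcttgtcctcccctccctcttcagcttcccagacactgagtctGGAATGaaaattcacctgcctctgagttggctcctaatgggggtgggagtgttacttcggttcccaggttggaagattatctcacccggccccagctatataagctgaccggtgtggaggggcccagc
AXL: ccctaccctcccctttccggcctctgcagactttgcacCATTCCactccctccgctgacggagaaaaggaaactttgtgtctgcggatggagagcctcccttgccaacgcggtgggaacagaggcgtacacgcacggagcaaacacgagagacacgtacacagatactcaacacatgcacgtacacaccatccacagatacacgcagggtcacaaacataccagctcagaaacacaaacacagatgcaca
F3: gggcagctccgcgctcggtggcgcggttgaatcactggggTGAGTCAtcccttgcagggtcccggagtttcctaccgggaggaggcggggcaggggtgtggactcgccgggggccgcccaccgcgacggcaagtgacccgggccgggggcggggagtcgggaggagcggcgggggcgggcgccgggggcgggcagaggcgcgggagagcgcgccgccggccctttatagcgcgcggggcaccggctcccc
A match is a description of the letters and not a bound site.

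**Figure D1:**
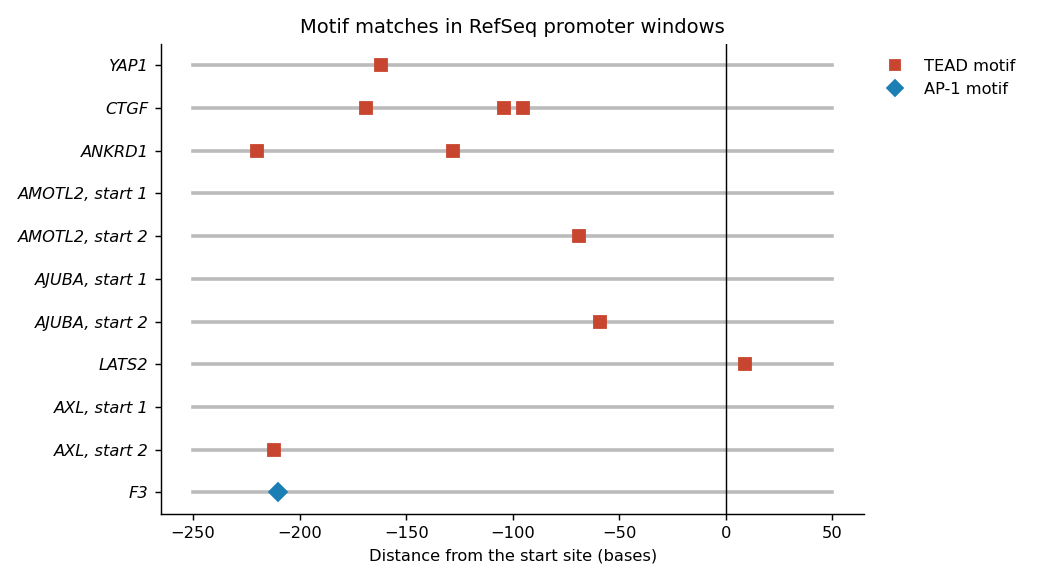
Positions of the TEAD motif (squares) and the AP-1 motif (diamond) in the 11 RefSeq promoter windows of 8 members, as distance in bases from the start site (black line). CTGF holds 3 TEAD matches and ANKRD1 holds 2, while F3 holds only an AP-1 match.

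Total counts per sample ranged from 33302292 to 44514692. CRLM1 itself had 32751 to 38704 counts in the CRLM1-OE samples, 0 in all Ctrl samples and 1540 to 1951 in the Anti samples. Whether strand was used in counting is not given in the sources used here, so reads of CRLM1 and of its antisense form cannot be told apart. The epithelial markers EPCAM, KRT8, KRT18, KRT19 and CDH1 were high in every sample, with a summed FPKM of 4846 to 4980 in CRLM1-OE, 5517 to 5556 in Ctrl cells and 4569 to 4624 in Anti. Within this sum, KRT18 had a mean FPKM of 426 in CRLM1-OE, beside 785 in the Ctrl cells and 826 in the Anti cells, and it fell against both (adjusted p = 1e-20). On the log2 scale KRT19 was 0.39 higher in CRLM1-OE than in Anti (adjusted p = 1e-20) but changed by -0.17 against Ctrl (edgeR, adjusted p = 1e-20). The change of KRT19 against Ctrl was -0.03 with total counts, and limma on log2(FPKM + 0.1) gave an adjusted p of 0.19. EPCAM changed by -0.353 against Ctrl and -0.368 against Anti (both adjusted p = 1e-20). KRT8 changed by -0.235 (adjusted p = 1e-20) and -0.111 (adjusted p = 1.1e-16), and CDH1 by -0.0517 (adjusted p = 0.21) and -0.115 (adjusted p = 1e-04). Of the mesenchymal markers, COL1A2, COL3A1 and DCN had 0 to 3 counts, PDGFRB had 1 to 12 and COL1A1 had 305 to 652. Their summed FPKM was 2.07 to 2.5 in CRLM1-OE, 1.19 to 1.28 in Ctrl cells and 1.27 to 1.42 in Anti. COL1A1 was higher in CRLM1-OE by 0.75 on the log2 scale against Ctrl (SE 0.074, adjusted p = 1e-20). Against Anti it was higher by 0.70 (SE 0.073, adjusted p = 1.3e-20). Of the blood cell markers, PTPRC had 0 to 2 counts and CD68 had 107 to 167, with CD68 0.39 higher on the log2 scale in CRLM1-OE than in Anti (SE 0.13, adjusted p = 0.011) and its change against Ctrl at 0.11 (SE 0.13, adjusted p = 0.56). No value was used here for CD3E or LUM. The part of these markers in the results below was not tested. In bulk RNA, fewer cells of a type and less RNA per cell cannot be told apart.

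In CRLM1-OE against Ctrl, 5 of the 10 genes rose (CTGF, CYR61, AMOTL2, AJUBA and LATS2), 4 fell (YAP1, TEAD4, AXL and F3), and ANKRD1 did not pass the test. A gene passed at an adjusted p of at most 0.05 in edgeR. Of all 29846 genes tested, 15.0% passed as higher and 16.8% as lower. Only 12928 of these genes averaged 50 or more counts, as every member but ANKRD1 did. The share that passed among genes of like count was not computed. Against Anti, 7 rose (the same 5 with TEAD4 and ANKRD1) and 3 fell (YAP1, AXL and F3), where 17.1% of 30183 genes passed as higher and 18.5% as lower. In Anti against Ctrl, 4 rose (YAP1, AJUBA, AXL and F3), 3 fell (TEAD4, CYR61 and ANKRD1) and 3 did not pass, where 11.5% of 29714 genes passed as higher and 12.2% as lower. The 3 comparisons share samples, so their counts are not independent. The median log2 fold change of the members was 0.44 against Ctrl, 0.46 against Anti and 0.0025 for Anti against Ctrl, beside 0.017, -0.023 and 0.0047 over all genes tested. The members were chosen with earlier results of these data known, which limits what these medians can show. With total counts in place of TMM factors, 5 members rose and 2 fell against Ctrl, and the medians were 0.59, 0.52 and 0.11. In edgeR, 0 members passed with a change of at least 2-fold against Ctrl, where 3.41% of all genes did. The largest change was the 0.82 of ANKRD1 on the log2 scale, so the count is 0 at any p, and it was also 0 with DESeq2 and limma. ANKRD1 was the single such member against Anti (5.65% of all genes) and in Anti against Ctrl (1.06%).

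**Figure D2:**
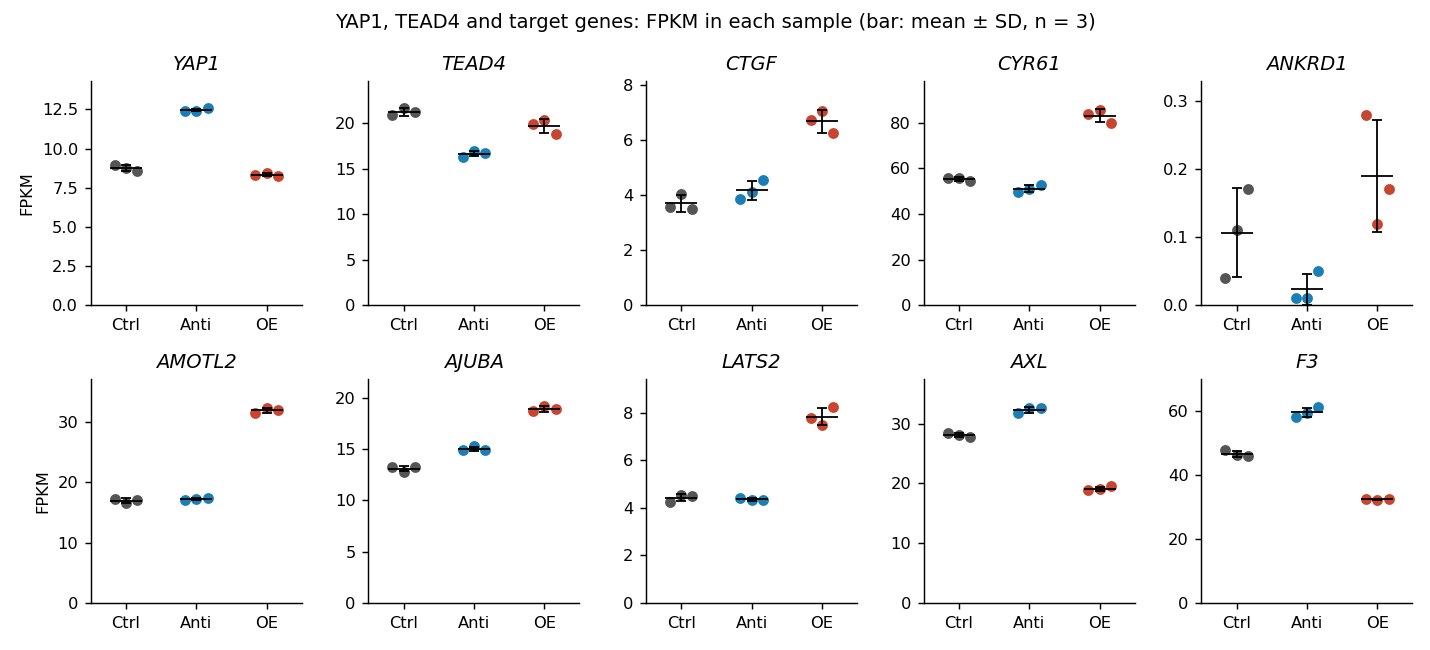
FPKM of the 10 genes (vertical axis, from 0) in each sample of Ctrl, Anti and CRLM1-OE (OE), with the mean and SD of 3 samples as bars. CTGF, CYR61, AMOTL2, AJUBA and LATS2 are higher in all CRLM1-OE samples than in any other sample, and AXL, F3 and YAP1 are lower, whereas the ANKRD1 values of CRLM1-OE and Ctrl overlap.

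YAP1 (chr11:102110447-102233424, plus strand, GRCh38) was low in CRLM1-OE cells and high in Anti cells. Its FPKM, a count scaled for gene length and depth, was 8.29, 8.45 and 8.25 in CRLM1-OE, 8.94, 8.76 and 8.58 in Ctrl cells and 12.42, 12.41 and 12.56 in Anti. The 3 groups did not overlap, in the order Anti, Ctrl, CRLM1-OE. The gap to Ctrl was small, with a log2 fold change of -0.19 (SE 0.039, adjusted p = 7.5e-06). It depended on the scaling, since with total counts in place of TMM factors it was -0.05 (adjusted p = 0.42), and limma on log2(FPKM + 0.1) gave -0.07 (adjusted p = 0.12). Against Anti the change was -0.63 (SE 0.035, adjusted p = 1e-20, the smallest value written), and Anti stood 0.42 above Ctrl (SE 0.036, adjusted p = 1e-20). Exons of YAP1 share 628 bases with an antisense noncoding gene that had 5 to 25 counts, beside 1808 to 3186 for YAP1.

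TEAD4 (chr12:2959330-3040676, plus strand), one of the DNA-binding partners of YAP1, lay between the control groups in CRLM1-OE cells. Its FPKM was 19.87, 20.35 and 18.87 in CRLM1-OE, 20.86, 21.73 and 21.24 in Ctrl cells and 16.34, 16.94 and 16.68 in Anti. Again no group overlapped another, with Ctrl the highest and Anti the lowest. TEAD4 was thus lower than in Ctrl, by a log2 fold change of -0.23 (SE 0.043, adjusted p = 1e-06), and higher than in Anti, by 0.20 (SE 0.045, adjusted p = 4.9e-05). The fall against Ctrl did not pass with total counts (-0.08, adjusted p = 0.14) or with limma on log2(FPKM + 1) (-0.11, adjusted p = 0.053). Anti was 0.44 below Ctrl on the log2 scale (log2 fold change -0.44, SE 0.044, adjusted p = 1e-20).

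Among the 4 TEAD genes, TEAD4 made up the largest part of the summed FPKM in every sample. Its share was 52.3% ± 0.383 (SD, n = 3) in CRLM1-OE, 55.6% ± 0.575 in Ctrl cells and 48.0% ± 1.54 in Anti. TEAD1 took 16.4% ± 0.92 in CRLM1-OE, beside 11.9% ± 0.732 in Ctrl cells and 12.4% ± 0.237 in Anti. TEAD2 took 8.8% ± 0.591 in CRLM1-OE, 12.7% ± 1.06 in Ctrl cells and 17.6% ± 0.18 in Anti. For both genes the range of CRLM1-OE lay apart from the ranges of the other groups. The summed FPKM of the family was 36.3 to 38.9 in CRLM1-OE and 37.3 to 38.9 in Ctrl, which overlap, and 34.2 to 35.2 in Anti. In edgeR, TEAD1 rose by a log2 fold change of 0.33 against Ctrl (SE 0.038, adjusted p = 1.3e-16) and TEAD2 changed by -0.67 (SE 0.075, adjusted p = 3e-18). The FPKM ratio of YAP1 to WWTR1, which encodes TAZ, was 0.796 ± 0.0133 in CRLM1-OE, 0.871 ± 0.0148 in Ctrl cells and 1.15 ± 0.0166 in Anti (SD, n = 3).

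**Figure D3:**
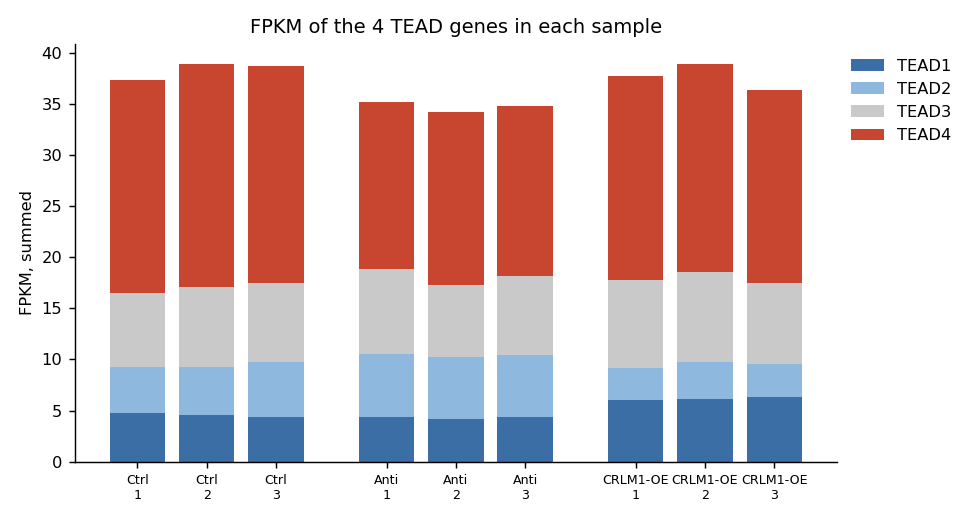
Summed FPKM of TEAD1, TEAD2, TEAD3 and TEAD4 (stacked, vertical axis from 0) in each of the 9 samples. TEAD4 is the largest part in every sample, and the TEAD2 part is smallest in the CRLM1-OE samples.

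CTGF and CYR61 encode secreted CCN proteins of the matrix and are the most used readouts of YAP1 and TAZ. CTGF (chr6:131948176-131951372, minus strand), whose promoter with 3 TEAD matches is printed above, had an FPKM of 6.72, 7.07 and 6.25 in CRLM1-OE, 3.58, 4.05 and 3.49 in Ctrl cells and 3.87, 4.1 and 4.54 in Anti. All CRLM1-OE samples stood above all others, and Ctrl and Anti overlapped. Exons of CTGF share 278 bases with the antisense noncoding gene LINC01013, which is not listed among the counts. Whether its reads were counted for CTGF cannot be told. The log2 fold change was 0.73 against Ctrl (SE 0.072, adjusted p = 1e-20) and 0.64 against Anti (SE 0.070, adjusted p = 1.4e-18), and that of Anti against Ctrl was 0.08 (SE 0.082, adjusted p = 0.58). CYR61 (chr1:85580761-85584589, plus strand) was the most abundant member in CRLM1-OE and Ctrl, with an FPKM of 83.74, 85.51 and 79.98 in CRLM1-OE, 55.78, 55.65 and 54.54 in Ctrl cells and 49.8, 50.87 and 52.7 in Anti. Its groups did not overlap. It rose by a log2 fold change of 0.47 against Ctrl (SE 0.027, adjusted p = 1e-20) and 0.66 against Anti (SE 0.025, adjusted p = 1e-20). Unlike CTGF, it fell in Anti against Ctrl (log2 fold change -0.21, SE 0.028, adjusted p = 4.8e-12).

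ANKRD1 (chr10:90912096-90921087, minus strand), a nuclear ankyrin repeat protein and a classical YAP1 target, was near the limit of detection. It had 27, 9 and 15 counts in CRLM1-OE, 4, 9 and 13 in Ctrl cells and 1, 1 and 4 in Anti, or at most 0.28 FPKM. CRLM1-OE and Ctrl overlapped in FPKM, as did Ctrl (lowest 0.04) and Anti (highest 0.05), while every CRLM1-OE sample lay above every Anti sample. The log2 fold change against Ctrl was 0.82 (SE 0.42, adjusted p = 0.13), and without Ctrl replicate 3 it was 1.31 (adjusted p = 0.029). Summed over 3 samples and scaled for depth, the ratio of CRLM1-OE to Anti was 8.47 (95% interval 3.64 to 24.2, from 51 and 6 counts), and that to Ctrl was 2.01 (1.23 to 3.35). These intervals cover counting error only. Against Anti the fitted change was 2.92 (SE 0.58, adjusted p = 2e-06). The change of Anti against Ctrl, -2.14 (SE 0.71, adjusted p = 0.012), did not pass without either of Anti replicates 1 and 2 (adjusted p = 0.076 and 0.067) or Ctrl replicates 2 and 3 (0.051 and 0.21).

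AMOTL2, LATS2 and AJUBA act on the pathway that induces them. AMOTL2 (chr3:134355347-134375479, minus strand), an angiomotin that binds YAP1 and holds it at junctions, had an FPKM of 31.51, 32.34 and 32.06 in CRLM1-OE, 17.31, 16.55 and 17.03 in Ctrl cells and 17.07, 17.18 and 17.32 in Anti. The CRLM1-OE samples stood apart from both control groups, which overlapped. With a log2 fold change of 0.80 against Ctrl (SE 0.029, adjusted p = 1e-20) and 0.85 against Anti (SE 0.027, adjusted p = 1e-20), AMOTL2 rose the most of the members that passed against Ctrl. Its exons share 187 bases with the pseudogene RPL39P5 on the same strand, which had 195 to 485 counts beside 3215 to 7214 for AMOTL2. LATS2 (chr13:20973036-21061586, minus strand), a kinase that phosphorylates YAP1 and TAZ, had an FPKM of 7.77, 7.5 and 8.22 in CRLM1-OE, 4.25, 4.53 and 4.48 in Ctrl cells and 4.41, 4.32 and 4.32 in Anti. The pattern was that of AMOTL2, with the controls overlapping and CRLM1-OE above both. Its log2 fold change was 0.71 against Ctrl (SE 0.045, adjusted p = 1e-20) and 0.80 against Anti (SE 0.045, adjusted p = 1e-20). AJUBA (chr14:22971177-22982551, minus strand), a LIM protein that binds LATS kinases and limits their action on YAP1, had an FPKM of 18.65, 19.18 and 18.87 in CRLM1-OE, 13.24, 12.77 and 13.21 in Ctrl cells and 14.9, 15.24 and 14.85 in Anti. Here all 3 groups were separate, and Anti lay between. AJUBA shares 50 exon bases with a protein-coding gene on its strand that had 64 to 101 counts, beside 2488 to 4263 for AJUBA. The log2 fold change was 0.42 against Ctrl (SE 0.033, adjusted p = 1e-20) and 0.29 against Anti (SE 0.030, adjusted p = 1.9e-20). That of Anti against Ctrl was 0.11 (SE 0.034, adjusted p = 0.0094), and without Anti replicate 2 it did not pass (0.09, adjusted p = 0.081). In Anti against Ctrl neither AMOTL2 (-0.07, SE 0.032, adjusted p = 0.084) nor LATS2 (-0.11, SE 0.052, adjusted p = 0.12) passed.

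AXL and F3 encode cell surface proteins, and both went the opposite way to the other targets that passed. AXL (chr19:41219223-41261766, plus strand), a receptor tyrosine kinase for GAS6, had an FPKM of 18.84, 19.01 and 19.53 in CRLM1-OE, 28.52, 28.15 and 27.71 in Ctrl cells and 31.78, 32.66 and 32.57 in Anti. The lowest control sample was well above the highest CRLM1-OE sample. An antisense noncoding gene with 5 to 17 counts covers 67 exon bases of AXL, which had 3534 to 7091. AXL fell against Ctrl (log2 fold change -0.67, SE 0.029, adjusted p = 1e-20) and against Anti (-0.80, SE 0.026, adjusted p = 1e-20), and Anti stood above Ctrl by 0.11 (SE 0.027, adjusted p = 0.00032). F3 (chr1:94529173-94541759, minus strand), the tissue factor that starts blood clotting, had an FPKM of 32.4, 32.25 and 32.41 in CRLM1-OE, 47.6, 46.15 and 45.97 in Ctrl cells and 58.12, 59.38 and 61.07 in Anti. Its samples took the same order, Anti, Ctrl, CRLM1-OE, without overlap. F3 fell against Ctrl (log2 fold change -0.64, SE 0.031, adjusted p = 1e-20) and more against Anti (-0.93, SE 0.028, adjusted p = 1e-20), with Anti 0.26 above Ctrl (SE 0.028, adjusted p = 6.9e-19). YAP1, AXL and F3 thus shared an order of groups in FPKM, whereas AMOTL2, LATS2 and CTGF were high in CRLM1-OE with overlapping controls. For YAP1 the small gap between CRLM1-OE and Ctrl depended on the scaling, as given above. For CTGF, CYR61, AMOTL2, AJUBA, LATS2, AXL and F3 both comparisons with CRLM1-OE passed under every alternative processing in which they were tested, with adjusted p values of at most 0.00064.

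**Figure D4:**
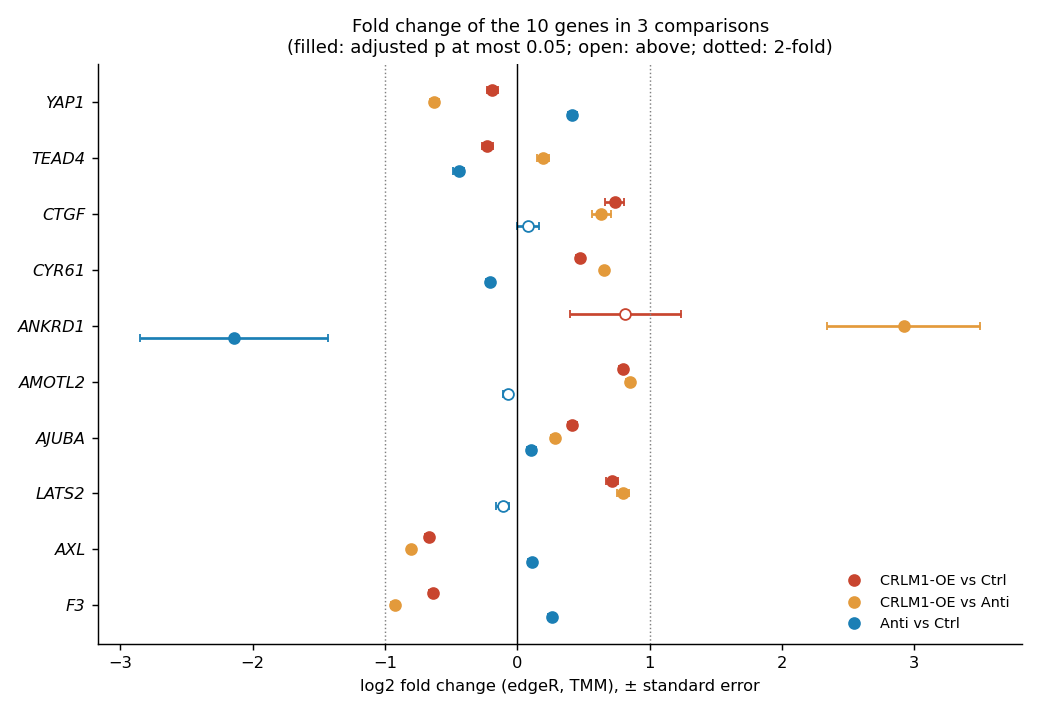
Log2 fold change (horizontal axis, edgeR with TMM factors) with its standard error for the 10 genes in CRLM1-OE against Ctrl, CRLM1-OE against Anti and Anti against Ctrl. Filled points passed at an adjusted p of at most 0.05, and dotted lines mark a 2-fold change, which ANKRD1 alone exceeds, with the widest errors.

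The wider pathway was read from 42 other genes in 4 lists, of which 41 or 42 were tested. Against Ctrl 13 rose, 15 fell and 13 did not pass, with a median log2 fold change of 0.015, where 15.0% of all genes tested passed as higher and 16.8% as lower, with a median of 0.017. With total counts 19 rose and 9 fell. Against Anti 13 rose, 18 fell and 11 did not pass, with a median of -0.09, beside 17.1% and 18.5% of all genes and a median of -0.023. In Anti against Ctrl 17 rose and 7 fell, or 21 and 4 with total counts, beside 11.5% and 12.2% of all genes. The lists therefore moved in both directions, and the split depended on the scaling. The shares of all genes again include genes of low count.

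Of the 10 genes of the kinase cascade, 1 rose and 6 fell against Ctrl, and 2 rose and 7 fell against Anti. With total counts 2 rose and 3 fell against Ctrl, the median going from -0.16 to -0.02, while against Anti the counts were again 2 and 7. Over all genes tested, low counts included, 15.0% passed as higher and 16.8% as lower against Ctrl, and 17.1% and 18.5% against Anti. TAOK1, a kinase that activates MST, had an FPKM of 2.38, 2.29 and 2.06 in CRLM1-OE, 3.1, 2.97 and 2.96 in Ctrl cells and 3.49, 3.6 and 3.63 in Anti, and its log2 fold change was -0.54 against Ctrl (SE 0.046, adjusted p = 1e-20). MAP4K4, another kinase upstream of LATS, changed by -0.50 against Ctrl (SE 0.032) and by -0.82 against Anti (SE 0.028), both at an adjusted p of 1e-20. MOB1A, a co-activator of LATS, changed by -0.45 (SE 0.039) and -0.74 (SE 0.035), again at 1e-20. TAOK3 was the gene that rose against both controls, by 0.34 (SE 0.083, adjusted p = 0.00017) and 0.32 (SE 0.082, adjusted p = 0.00036). STK3, one of the MST kinases, rose against Anti by 0.20 (SE 0.051, adjusted p = 0.00032), its change against Ctrl was -0.06 (adjusted p = 0.46), and in Anti against Ctrl it was -0.28 (SE 0.052, adjusted p = 8.5e-07, but 0.064 with limma on log2(FPKM + 0.1)). LATS1, the paralog of LATS2, changed by -0.22 against Ctrl (SE 0.050, adjusted p = 4.2e-05), with overlapping FPKM values. That change was -0.08 with total counts, and limma on log2(FPKM + 1) gave an adjusted p of 0.27.

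Of the 10 upstream regulators at membrane and junctions, 5 rose and 2 fell against Ctrl (7 and 1 with total counts), and 4 rose and 2 fell against Anti (6 and 2). The shares of all genes, low counts included, were 15.0% higher and 16.8% lower against Ctrl, and 17.1% and 18.5% against Anti. NF2, which encodes Merlin and activates LATS at the membrane, had an FPKM of 14.63, 15.0 and 14.24 in CRLM1-OE, 7.65, 7.2 and 7.1 in Ctrl cells and 8.88, 8.9 and 8.68 in Anti. WWC1, encoding its partner KIBRA, had 17.13, 16.69 and 16.42, then 8.7, 8.55 and 8.06, and then 10.51, 10.49 and 10.32 in the same groups. In both genes every CRLM1-OE sample was far above every control sample. The log2 fold changes of NF2 were 0.88 (SE 0.033) and 0.68 (SE 0.030), and those of WWC1 were 0.87 (SE 0.032) and 0.64 (SE 0.028), against Ctrl and Anti, each at an adjusted p of 1e-20. AMOT, the founding angiomotin, rose by 0.42 (SE 0.10, adjusted p = 0.00025) and 0.72 (SE 0.11, adjusted p = 1.1e-10). The atypical cadherin FAT1 changed by -0.42 (SE 0.022) and -0.82 (SE 0.019), both at 1e-20. DLG5, a scaffold of cell junctions, changed by -0.73 against Anti (SE 0.038, adjusted p = 1e-20), whereas its change of -0.13 against Ctrl (SE 0.043, adjusted p = 0.011) was 0.01 with total counts and did not pass with DESeq2 (adjusted p = 0.052), with limma (0.85), or without CRLM1-OE replicate 2 (0.07) or Ctrl replicate 1 (0.14) or 2 (0.052).

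Of the 7 TEAD factors and co-regulators, 2 rose and 2 fell against Ctrl (3 and 1 with total counts), and 2 rose and 3 fell against Anti (3 and 2). Beside them, 15.0% of all genes tested passed as higher and 16.8% as lower against Ctrl, and 17.1% and 18.5% against Anti. VGLL3, a co-factor that binds TEADs in place of YAP1, rose by 1.44 against Ctrl (SE 0.30, adjusted p = 9.3e-06) and 1.34 against Anti (SE 0.30, adjusted p = 2.4e-05), from an FPKM of at most 0.04 in the controls to at most 0.09 in CRLM1-OE. It was, with TGFB2, one of the 2 genes of the lists that passed at 2-fold in these comparisons. Of all genes tested, 3.41% did so against Ctrl and 5.65% against Anti. VGLL3 and TGFB2 averaged only 26.83 and 14.33 counts over the CRLM1-OE and Ctrl samples. With total counts NF2 and WWC1, both at 1.02, also reached 2-fold against Ctrl, and TGFB2, at -0.94, did not. VGLL4, a repressor that competes with YAP1 for TEADs, changed by -0.20 against Ctrl (SE 0.036, adjusted p = 9.9e-08, but 0.22 with total counts) and by -0.34 against Anti (SE 0.033, adjusted p = 1e-20).

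Of the 15 other YAP and TAZ targets, 5 rose and 5 fell against Ctrl among 14 tested (7 and 4 with total counts), and 5 rose and 6 fell against Anti. Among all genes tested, 15.0% passed as higher and 16.8% as lower against Ctrl, and 17.1% and 18.5% against Anti. MYOF, a ferlin of membrane repair, had an FPKM of 28.82, 29.18 and 28.5 in CRLM1-OE, 50.6, 47.12 and 45.5 in Ctrl cells and 50.36, 50.17 and 50.11 in Anti. The controls overlapped and CRLM1-OE lay below both. MYOF changed by -0.84 against Ctrl (SE 0.024) and by -0.85 against Anti (SE 0.021), and NT5E, the ecto-enzyme CD73, by -0.60 (SE 0.038) and -0.57 (SE 0.036), all at an adjusted p of 1e-20. ARHGEF17 rose by 0.83 (SE 0.063) and 0.65 (SE 0.061), both at 1e-20. PTPN14, a phosphatase that binds YAP1, rose by 0.28 against Ctrl (SE 0.033, adjusted p = 3e-16) and 0.74 against Anti (SE 0.033, adjusted p = 1e-20), with Anti 0.48 below Ctrl (log2 fold change -0.48, SE 0.036). CCDC80, a matrix protein at an FPKM of at most 0.17, rose by 0.74 (SE 0.19, adjusted p = 0.00062) and 0.83 (SE 0.20, adjusted p = 8.2e-05), but its adjusted p was 0.061 and 0.063 with limma on log2(FPKM + 0.1). The growth factor gene TGFB2, with FPKM values of 0.02 to 0.08 in CRLM1-OE, changed by -1.08 against Ctrl (SE 0.39, adjusted p = 0.019) and -1.44 against Anti (SE 0.36, adjusted p = 0.00023), but neither passed with limma on log2(FPKM + 0.1) (adjusted p = 0.17 and 0.11). The change against Ctrl also did not pass with DESeq2 (adjusted p = 0.11) or without CRLM1-OE replicate 2 or 3 or Ctrl replicate 1 (adjusted p = 0.08, 0.19 and 0.084). IGFBP3, a binding protein of insulin-like growth factors, changed by -0.71 against Ctrl (SE 0.17, adjusted p = 0.00018, but 0.052 with limma), and against Anti by -0.18 (SE 0.19, adjusted p = 0.53). Targets were thus found on both sides in this list, as among the members.

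**Figure D5:**
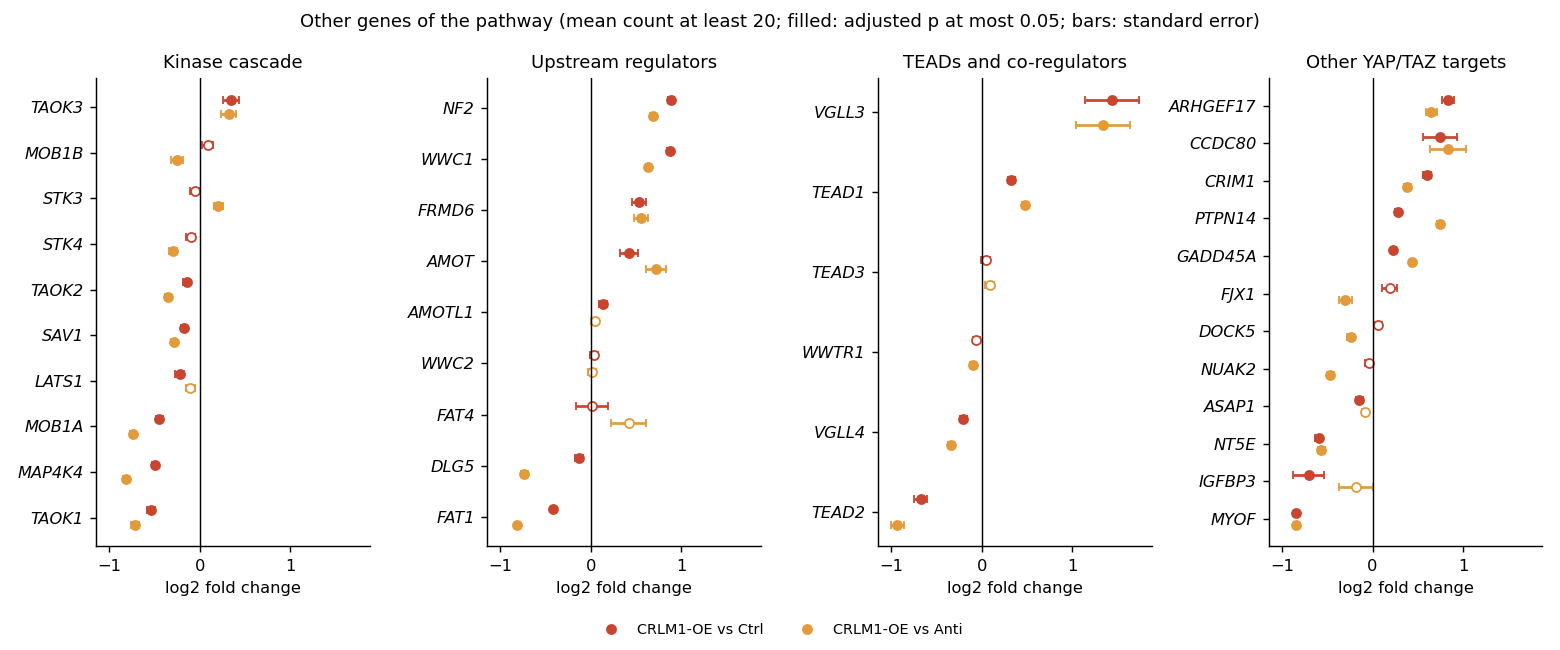
Log2 fold change with its standard error of the other pathway genes in CRLM1-OE against Ctrl (red) and against Anti (orange), 1 panel per list, for genes averaging 20 or more counts (TGFB2 had fewer). Among the upstream regulators NF2 and WWC1 lie furthest to the right against Ctrl and AMOT (0.72) against Anti, and most genes of the kinase cascade lie left of 0.

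The 2 control groups also differed in the pathway. In Anti against Ctrl, DLG5 rose by 0.58 (SE 0.039), NUAK2, a kinase, by 0.40 (SE 0.039), FAT1 by 0.38 (SE 0.021) and MAP4K4 by 0.29 (SE 0.029), each at an adjusted p of 1e-20. FJX1 rose by 0.47 (SE 0.077, adjusted p = 2e-08), MOB1B by 0.31 (SE 0.064, adjusted p = 9.5e-06) and TEAD2 by 0.24 (SE 0.066, adjusted p = 0.0021, but 0.06 without Ctrl replicate 1). VGLL4 rose by 0.12 (SE 0.034, adjusted p = 0.0025, but 0.072 without Anti replicate 1). Of the 7 genes that passed as lower, IGFBP3, AMOT, TEAD1 and LATS1 lost this call under other processing, as did STK3, given above. PTPN14 (-0.48, SE 0.036) and GADD45A (-0.24, SE 0.024), both at 1e-20, kept it under every alternative. Their largest adjusted p values were 0.0029 and 0.0034, with limma on log2(FPKM + 1). GADD45A, another YAP and TAZ target, is outside the rule by which genes are named. IGFBP3 changed by -0.55 (SE 0.17, adjusted p = 0.0059), and its adjusted p was 0.13 with limma on log2(FPKM + 0.1) and 0.055 without Ctrl replicate 2. AMOT changed by -0.32 (SE 0.12, adjusted p = 0.028), with overlapping FPKM values, and did not pass with total counts (0.19), DESeq2 (0.084) or limma (0.46 and 0.34), or without Anti replicate 1 (0.14) or 3 (0.073) or Ctrl replicate 1 (0.19) or 3 (0.057). TEAD1 changed by -0.17 (SE 0.041, adjusted p = 0.00018), also with overlap, and did not pass with total counts (-0.07, adjusted p = 0.27) or limma (0.33 and 0.34). LATS1 changed by -0.14 (SE 0.050, adjusted p = 0.025), again with overlap, and did not pass with total counts (-0.03, adjusted p = 0.66), DESeq2 (0.091), limma (0.72 with either pseudocount) or all 9 samples in one fit (0.092), or without Anti replicate 3 (0.40) or Ctrl replicate 1 (0.34) or 2 (0.053). Of the 42 genes tested, 18 did not pass.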

How the data were processed

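RNA from HCT116 cells was sequenced by the authors as read pairs (KAPA RNA HyperPrep libraries), in CRLM1-OE, Ctrl and Anti groups of 3, assigned by their labels. The authors dropped reads under 16 nt, mapped the others to GRCh38 and Gencode version 23 by TopHat2, allowing 4 mismatches, and deposited raw counts of uniquely mapped reads per gene. The authors also deposited FPKM, scaled for length and mapped fragments and given to 2 decimals. The FPKM were used for levels, the counts for tests. Whether strand was used, and how a gene was called expressed, are not given in the sources used here.

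Counts were tested with edgeR 4.0.16 (R 4.3.3; TMM factors, glmQLFit with its legacy estimate, glmQLFTest) separately per comparison, on 6 samples and every gene with at least 1 count, with Benjamini-Hochberg adjustment over all genes tested. The limit for passing was an adjusted p of 0.05, and values under 1e-20 are given as 1e-20. The prior degrees of freedom were infinite in all comparisons, so genes of like count shared one estimate of the spread, unlike in limma. The SE is the absolute log2 fold change divided by the root of F. The script was tested on simulated data. The 10 members and all lists were chosen with earlier results of these data known. From each list the text names the 2 largest rises and falls per comparison with a mean count of at least 50 that passed, and any gene that also passed at 2-fold. Promoter windows were from RefSeq (GRCh38.p14) and positions from GENCODE version 44. An exact permutation test of 3 against 3 cannot go below 0.1 and was not used.

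Over the 9 samples, 3 counts correspond to 0.0674 to 0.0901 CPM, and genes with fewer counts were also tested. Within groups, replicates differed by more than counting noise (chi-square per degree of freedom 2.13 to 4.45), so none was a repeat deposit. TMM and total counts differ in centre: the median log2 change of genes averaging 50 or more counts was -0.035 with TMM and 0.11 with total counts against Ctrl, -0.031 and 0.028 against Anti, and -0.0023 and 0.10 for Anti against Ctrl. The alternatives were total counts, RLE factors, filterByExpr, the Wald test of DESeq2 1.42.0, limma 3.58.1 on log2(FPKM + 0.1) and log2(FPKM + 1), all 9 samples in one fit, the replicate block, each replicate left out, and, added after the data were seen, the bias-adjusted quasi-likelihood of edgeR. Sequences were searched with Python 3.11.15 and pandas 2.3.3, and figures drawn with matplotlib 3.10.9.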

Additional observations from a re-analysis of the deposited data

How the results depend on the processing

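Among the log2 fold changes of the 10 genes, 431 of 448 recomputed values kept their direction and side of the threshold, 12 lost the pass, 2 gained it and 3 reversed. For the other named genes the counts were 657 of 705 kept, 47 lost and 1 reversed. Total counts left 2 members passed as lower against Ctrl (4 with TMM) and 9 of the other pathway genes (15 with TMM), and 4 of the other pathway genes in Anti against Ctrl (7 with TMM). limma on log2(FPKM + 1) left 2 members lower against Ctrl, and both pseudocounts left 7 pathway genes lower against Ctrl and 2 in Anti against Ctrl. The 2-fold call of ANKRD1 against Anti was lost (0 members) with limma on log2(FPKM + 1), and that of Anti against Ctrl (0 members) with filterByExpr, DESeq2 and limma at both pseudocounts. ANKRD1 has no value of its own under filterByExpr in Anti against Ctrl and none with DESeq2 there. Leaving out 1 replicate gave 0 to 1 members at 2-fold against Ctrl and 0 to 1 in Anti against Ctrl, ANKRD1 in each case. Reversed values were those of DLG5 against Ctrl with total counts (0.0118) and, in Anti against Ctrl, of AMOTL2 with total counts (0.032), limma on log2(FPKM + 0.1) (0.0193) and log2(FPKM + 1) (0.0183). Where total counts changed a call, the centre shift given for that scaling is part of its construction. For the limma changes the cause was not tested. Same-numbered samples of different groups had deviations correlated between -0.0328 and 0.0783 (9 pairs, 12941 genes). For samples of different number the range was -0.0456 to 0.0744 (18 pairs). Low correlations cannot exclude a culture or batch shared by samples of one number. With the replicate block, 5 members passed as higher and 4 as lower against Ctrl, as without it, and no count of members or pathway genes moved by over 1.5 times in any comparison. The counts of ANKRD1, at most 27 in a sample, limit what can be said of it.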
